A study of Mus musculus with 4 samples.

Results

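The TET dioxygenases Tet2 and Tet3, the thymine DNA glycosylase Tdg and 6 members of the methyl-CpG reader families, Mbd1, Mbd2, Mbd3, Mbd4, Zbtb33 and Zbtb38, were followed by RNA sequencing in peritoneal macrophages of mice with a floxed or a Cre-deleted Dnmt1 gene. The genes were taken by name for their known roles, with earlier results of these data known, and all 9 were found among the 13834 genes of the table and tested. The cells came from 2 samples of Dnmt1fl/fl mice, which carry a Dnmt1 gene flanked by loxP sites, and 2 samples of Dnmt1KO mice. The Dnmt1KO mice carry the same floxed gene together with Cre under the LysM promoter, which is active in myeloid cells. The study's isolation protocol used 10-week-old mice, injected with thioglycolate broth 3 days before the peritoneal cavity was washed out. The labels list the control genotype as wt although the sample titles name it f_f, and the presence of Cre and the loss of Dnmt1 cannot be told apart in this design. Whether a sample was 1 mouse or a pool is not given, so the p-values measure the spread between these samples, which may in part be technical.

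Methylation of the cytosine in a CpG dinucleotide is copied onto the new strand by Dnmt1 after replication. TET enzymes oxidise 5-methylcytosine stepwise, and Tdg cuts out the most oxidised forms, so that base excision repair puts an unmodified cytosine back. Proteins with a methyl-CpG binding domain, and the zinc finger proteins of the Kaiso family, bind methylated sites and bring corepressors to them. Tet2 is known in macrophages and other blood cells for restraining inflammatory genes.

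The libraries held 20228071 to 24198943 counts each, and a gene had to be above 0 in every sample to be listed. Dnmt1, the targeted gene, was at 86.6 and 67.0 CPM (counts scaled to a common library total, with TMM, edgeR's factors for comparing libraries) in Dnmt1fl/fl replicates 1 and 2, and at 37.0 and 42.7 CPM in Dnmt1KO replicates 1 and 2. Both Dnmt1KO samples were below both controls and still held Dnmt1 RNA, with a change of the mean of -48.1%, and the log2 fold change was -0.95 ± 0.24 (standard error; adjusted p = 1.00 with edgeR). All 8 macrophage markers were detected, with a summed level of 34589 to 35511 CPM in Dnmt1fl/fl and 17906 to 21485 CPM in Dnmt1KO samples. Most of this was Lyz2, the gene whose promoter is called LysM, at 29531 and 28587 CPM in Dnmt1fl/fl and 11351 and 15745 CPM in Dnmt1KO samples. In the Dnmt1KO mice Cre is driven from that promoter, and whether this alters Lyz2 was not tested. In the other 7 markers the genotypes overlapped, with log2 fold changes from -0.12 to 0.32. One library stood apart from the rest: Dnmt1KO replicate 1 had 568 CPM over the neutrophil markers, of which 6 of 9 were in the table, against 23.5 to 116 CPM in the other samples. It also had 130 CPM over the 6 B cell markers, against 318 to 525 CPM. Over the 13 proliferation markers it had 518 CPM against 298 to 387 CPM. Pcna alone gave 248 CPM against 118 to 164 CPM, and Rrm2 and the Mcm genes among them were also highest there. Mki67, Top2a, Cdk1, Ccnb1 and Ccna2 lay within the range of the other samples. Over the 6 mesothelial markers Dnmt1KO replicate 1 had 10.5 CPM against 3.94 to 7.02 CPM. T cell and eosinophil markers in that library were within the range of the others or below it, at 23.3 CPM against 19.4 to 29.1 and 7.67 CPM against 10.05 to 14.1. Of the neutrophil granule genes, Mpo, Elane and Camp were not in the table and Ltf was at 2.98 CPM in that library and at most 0.487 CPM elsewhere. Ly6g, a neutrophil surface protein, was at 3.99 CPM there and at most 0.319 CPM elsewhere. The part of these cells in the values below was not tested, and in bulk RNA fewer cells of a type and less RNA per cell cannot be told apart.

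RefSeq's table on GRCm38.p6 held start sites for 7 of the 9 genes, in 9 windows, and most of these were CpG-rich. Methylation itself was not measured. The 250 bases before the start held 51 CpG in Tet2, 17 in Tet3, 19 in Tdg, 14 in Mbd3, 22 in Mbd4 and 27 in Zbtb33, and 6, 23 and 31 at the 3 starts of Zbtb38, against a median of 6 over 32851 promoters. Tet2 was extreme, as 99.9% of promoters held fewer CpG. Tet2 and Tet3 on one side, and Tdg and Mbd3 on the other, varied in opposite directions between the samples, as described further on. Mbd4 and Zbtb38 had the order of Tet2 and Tet3, and a link of these differences to promoter sequence was not tested. The promoter sequences of Tet2, Tet3, Tdg and Mbd3 are shown. Each is written 5′ to 3′ on the strand of the gene, with every CpG in capitals, for Tet2 at chr3:133544391-133544640 (minus strand), Tet3 at chr6:83441679-83441928 (minus strand), Tdg at chr10:82629588-82629837 (plus strand) and Mbd3 at chr10:80399532-80399781 (minus strand).
Tet2: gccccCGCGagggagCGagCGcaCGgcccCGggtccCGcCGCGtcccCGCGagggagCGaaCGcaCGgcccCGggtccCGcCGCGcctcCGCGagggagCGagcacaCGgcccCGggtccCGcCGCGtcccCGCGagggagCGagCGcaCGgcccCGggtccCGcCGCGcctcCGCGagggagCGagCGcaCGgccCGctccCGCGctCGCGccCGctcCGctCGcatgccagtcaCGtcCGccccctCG
Tet3: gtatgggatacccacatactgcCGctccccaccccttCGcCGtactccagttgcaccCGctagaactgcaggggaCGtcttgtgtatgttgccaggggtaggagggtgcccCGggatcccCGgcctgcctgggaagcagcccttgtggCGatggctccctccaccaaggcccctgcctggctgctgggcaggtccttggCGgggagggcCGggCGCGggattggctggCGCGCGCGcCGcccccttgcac
Tdg: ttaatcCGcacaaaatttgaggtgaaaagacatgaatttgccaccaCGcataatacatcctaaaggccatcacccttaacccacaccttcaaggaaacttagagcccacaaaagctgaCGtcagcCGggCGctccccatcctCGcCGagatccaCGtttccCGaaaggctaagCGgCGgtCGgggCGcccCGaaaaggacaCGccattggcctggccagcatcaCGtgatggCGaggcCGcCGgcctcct
Mbd3: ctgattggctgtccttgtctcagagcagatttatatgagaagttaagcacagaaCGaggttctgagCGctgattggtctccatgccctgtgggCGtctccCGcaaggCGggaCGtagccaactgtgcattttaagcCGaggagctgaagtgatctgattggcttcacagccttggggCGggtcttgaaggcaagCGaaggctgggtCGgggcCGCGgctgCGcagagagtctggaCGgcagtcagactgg
The longest stretch that occurs more than once within a window had 43 bases in Tet2 and 7 to 10 bases in the other member windows. A single motif of Kaiso, TCCTGCNA, which holds no CpG, was searched on both strands, and its methylated CpG sites were not. The motif was in none of the 9 windows, and it occurs in 4.03% of all promoters of this length. That says nothing of where Kaiso binds.

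In none of the 9 genes did the genotypes differ by edgeR's quasi-likelihood test with Benjamini-Hochberg adjustment over all 12542 genes tested. The adjusted p was 1.00 for each, and the unadjusted p ran from 0.278 for Zbtb33 to 0.942 for Mbd4. Across all genes 0 were called (0.0%), and 35 (0.279%) had an unadjusted p under 0.05, none of them among the 9. The study's own limit, a log2 difference of 0.2 in either direction, was passed by 2 of the 9, Mbd3 higher and Zbtb33 lower, where 41.5% of all genes passed it, 21.8% higher and 19.7% lower. That count rested on the samples used: it was 9 of 9 without Dnmt1KO replicate 2, where 9229 of 12754 genes passed, 5 without Dnmt1KO replicate 1 (5434 of 12912 genes), 4 without Dnmt1fl/fl replicate 1 (5832 of 12905) and 6 without Dnmt1fl/fl replicate 2 (7036 of 12804). The samples of the genotypes did not overlap in 2 of the 9, Mbd2 higher and Zbtb33 lower, against 16.7% of all genes (8.14% higher and 8.56% lower), and these were also the only 2 of the 9 whose mean log2 difference was larger than the pooled SD between replicates. With 2 samples against 2, a two-sided exact permutation test on 1 gene cannot go below a p of 0.33.

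**Figure D1:**
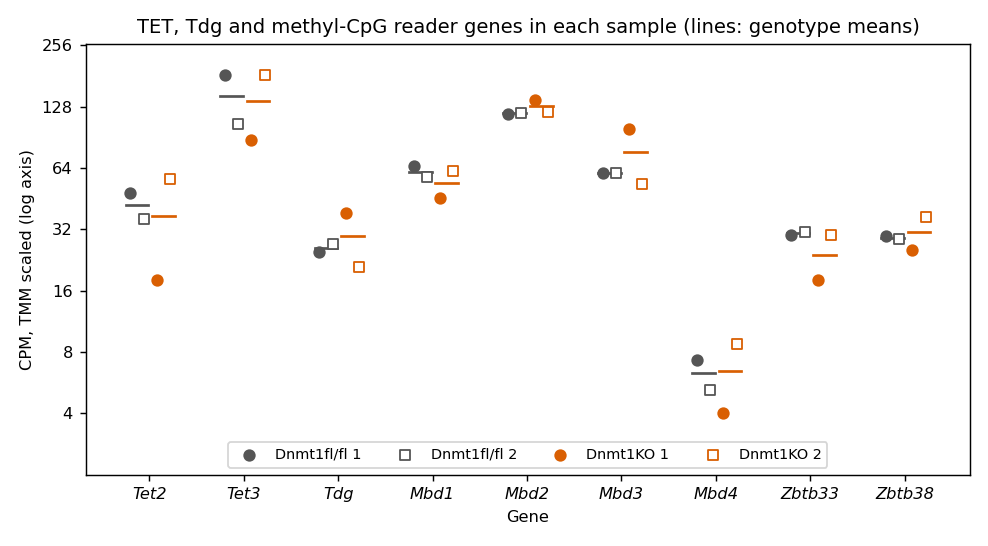
CPM of each gene in each sample on a log axis, with grey symbols for Dnmt1fl/fl, orange for Dnmt1KO, filled circles for replicate 1, open squares for replicate 2 and lines for the means of 2 samples. The 2 Dnmt1KO samples lie on opposite sides of both controls in 6 of the 9 genes, and Tet2 ranges most widely, from 18.0 to 56.6 CPM.

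Tet2, on chromosome 3 from 133463679 to 133545139 in GENCODE M21 (GRCm38), was at 48.4 and 36.0 CPM in Dnmt1fl/fl replicates 1 and 2 and at 18.0 and 56.6 CPM in Dnmt1KO replicates 1 and 2. The lowest and the highest value of this dioxygenase were thus both from Dnmt1KO macrophages. The means were 42.2 ± 8.72 (SD, n = 2) and 37.3 ± 27.3 CPM (SD, n = 2), a log2 fold change of -0.18 with a 95% interval from -1.50 to 1.15 (adjusted p = 1.00, edgeR). With limma-voom the log2 fold change was -0.38, past the limit of 0.2. Without Dnmt1KO replicate 1 the log2 fold change was 0.42 and the adjusted p stayed at 1.00 (edgeR). Without Dnmt1KO replicate 2 it was -1.23 with an adjusted p of 0.0138 from edgeR, a fit in which a single Dnmt1KO sample is assumed to vary like the controls and which called 1061 of 12754 genes (8.32%). The direction of Tet2 therefore followed whichever Dnmt1KO library was kept.

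Tet3, on chromosome 6 from 83362373 to 83459084, is the other TET gene active here. It was at 183 and 105 CPM in Dnmt1fl/fl and at 87.9 and 184 CPM in Dnmt1KO macrophages, so that Dnmt1KO replicate 1 was again lowest and Dnmt1KO replicate 2 highest. The control samples also differed, 1.73-fold, more than in any other of the 9 genes. The log2 fold change was -0.083 (95% interval -1.19 to 1.02, adjusted p = 1.00, edgeR). It was 0.35 without Dnmt1KO replicate 1 and -0.71 without Dnmt1KO replicate 2. Tet1, the remaining TET gene, was near the limit of detection, at 8, 1, 1 and 9 counts in Dnmt1fl/fl replicates 1 and 2 and Dnmt1KO replicates 1 and 2, and did not pass the filter on low counts.

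Tdg, on chromosome 10 from 82629828 to 82650799, encodes the glycosylase that follows the TET enzymes, and it varied the other way. Its level was 24.9 and 27.2 CPM in Dnmt1fl/fl samples and 38.6 and 21.0 CPM in Dnmt1KO replicates 1 and 2. Here Dnmt1KO replicate 1 was highest and replicate 2 lowest. The log2 fold change was 0.19 (95% interval -0.63 to 1.01, adjusted p = 1.00, edgeR), and it went from 0.57 without Dnmt1KO replicate 2 to -0.32 without Dnmt1KO replicate 1. The counts of Tdg are less certain than the rest, since they were not whole numbers in any sample. Of its 100-base stretches, 16.9% occur in the processed pseudogene Tdg-ps, 11.7% in Gm9855 and 10.4% in Gm5597, and 6.83% of its exonic bases overlap Glt8d2 on the other strand. Gm9855, Gm5597 and Glt8d2 were not in the table. Tdg-ps itself was at 5.21 and 6.50 CPM in controls and at 11.2 and 3.77 CPM in Dnmt1KO replicates 1 and 2, in the same order as Tdg.

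Among the readers with a methyl-CpG binding domain, Mbd2 had the smallest pooled SD between replicates of the 9 genes, 0.092 on the log2 scale. Mbd2, on chromosome 18 from 70568189 to 70626131, encodes a subunit of the NuRD complex that binds methylated DNA. It was at 118 and 119 CPM in Dnmt1fl/fl and at 137 and 121 CPM in Dnmt1KO macrophages, both above both controls. The mean was higher by 8.60% and the log2 fold change was 0.12, with the narrowest interval of the 9 (95%, -0.41 to 0.65; adjusted p = 1.00, edgeR). Without Dnmt1KO replicate 1 it was 0.022, so that library carried most of the difference.

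Mbd3, on chromosome 10 from 80392539 to 80399550, takes the place of Mbd2 in NuRD and in mammals binds methylated DNA poorly. The controls were at 60.6 and 60.2 CPM, and Dnmt1KO replicates 1 and 2 lay on either side, at 99.6 and 53.5 CPM. The log2 fold change was 0.34 (95% interval -0.49 to 1.17, adjusted p = 1.00, edgeR). It was 0.72 without Dnmt1KO replicate 2 (adjusted p = 0.0391, edgeR, in the fit that called 8.32% of genes) and -0.18 without Dnmt1KO replicate 1. In these libraries Mbd3 thus had a far larger gap between the Dnmt1KO samples, 0.90 on the log2 scale, than between the controls, 0.0085.

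Mbd1, on chromosome 18 from 74267605 to 74282732, recruits histone H3 lysine 9 methylation to methylated sites. It was at 65.1 and 57.6 CPM in Dnmt1fl/fl samples and at 45.7 and 61.8 CPM in Dnmt1KO replicates 1 and 2. Only Dnmt1KO replicate 1 lay outside the range of the controls, and without it the log2 fold change went from -0.19 to 0.0092 (95% interval with all 4 samples -0.80 to 0.42, adjusted p = 1.00, edgeR). Mbd4, on chromosome 6 from 115840697 to 115853371, couples such a domain to a glycosylase that removes thymine and uracil from mismatches at CpG. It was the lowest of the 9, at 7.36 and 5.22 CPM in controls and at 4.04 and 8.81 CPM in Dnmt1KO macrophages. Its order among the samples was that of Tet2 and Tet3. The log2 fold change was 0.035 (95% interval -1.11 to 1.18, adjusted p = 1.00, edgeR), 0.49 without Dnmt1KO replicate 1 and -0.63 without Dnmt1KO replicate 2. Of its exonic bases, 5.0% overlap the antisense gene Gm44206, which was not in the table, and with no strand setting stated for the counting, reads of the pair could not be told apart there.

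**Figure D2:**
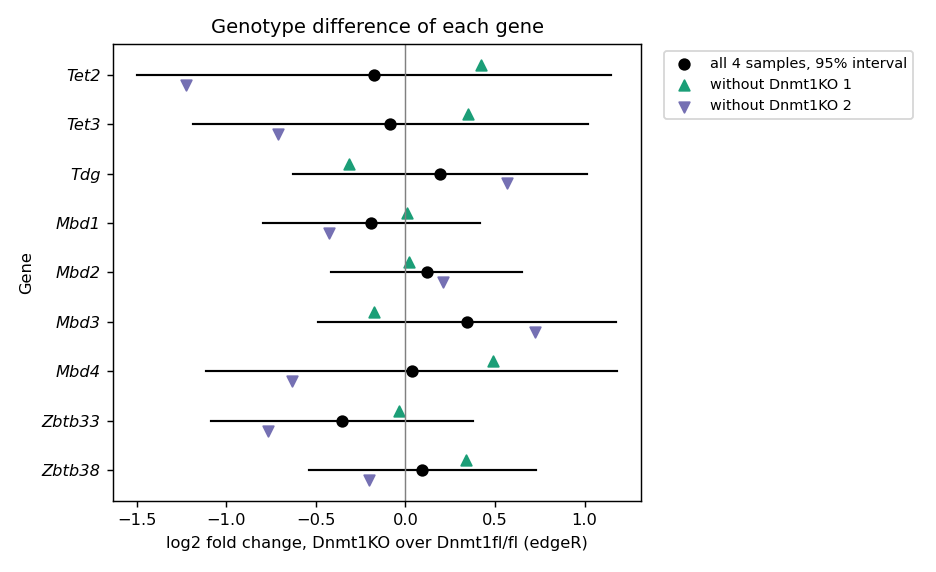
Log2 fold change of each gene, Dnmt1KO over Dnmt1fl/fl, from edgeR, with black points for all 4 samples, lines for the 95% interval and triangles for the value with either Dnmt1KO sample left out. Every interval spans 0, and in 7 of the 9 genes the triangles fall on opposite sides of 0.

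Of the zinc finger readers, Zbtb33 was the 1 gene lower in both Dnmt1KO samples on the CPM scale. Zbtb33, also called Kaiso, lies on the X chromosome from 38189793 to 38197046 and represses transcription through the NCoR corepressor. It was at 30.2 and 31.1 CPM in Dnmt1fl/fl and at 18.0 and 29.9 CPM in Dnmt1KO macrophages. Dnmt1KO replicate 2 fell just short of the lower control, by less than the gap between the controls, and replicate 1 carried the rest. The log2 fold change was -0.35 (standard error 0.29, 95% interval -1.09 to 0.38, adjusted p = 1.00, edgeR), -0.038 without Dnmt1KO replicate 1 and -0.76 without Dnmt1KO replicate 2 (adjusted p = 0.0464, edgeR, in the fit that called 8.32% of genes). Its counts were not whole in 2 samples, and 9.25% of its exonic bases overlap Tmem255a on the other strand, a gene at 0.292 CPM or less in every sample. Zbtb38, on chromosome 9 from 96682770 to 96752831, binds single methylated CpG. It was at 29.7 and 28.7 CPM in controls and at 25.4 and 36.9 CPM in Dnmt1KO replicates 1 and 2, on either side of them. The log2 fold change was 0.096 (95% interval -0.54 to 0.73, adjusted p = 1.00, edgeR), and it was 0.34 without Dnmt1KO replicate 1 and -0.20 without Dnmt1KO replicate 2.

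Per transcript length, the readers with a methyl-CpG binding domain spanned the whole range of the 9 genes. In TPM (counts per base of the longest GENCODE transcript, scaled to a common total), Mbd2 stood at 148 ± 1.55 (SD, n = 2) in Dnmt1fl/fl and 149 ± 13.0 (SD, n = 2) in Dnmt1KO macrophages, and Mbd3 came next at 88.4 ± 1.76 and 101 ± 26.1. Mbd1 followed at 38.1 ± 3.92 and 31.8 ± 12.1 TPM and Tet3 at 32.2 ± 12.7 and 29.6 ± 19.2 TPM, and these neighbours did not differ beyond their spread in either genotype. Tdg was at 18.1 ± 0.862 TPM, Zbtb33 at 14.6 ± 0.0870 TPM, Tet2 at 11.2 ± 2.49 TPM and Zbtb38 at 9.59 ± 0.375 TPM in Dnmt1fl/fl samples. Of these, Tet2 and Zbtb38 overlapped in the controls, and in Dnmt1KO samples Tet2 alone ran from 3.91 to 15.8 TPM, across the values of all 3 others in part. Mbd4 was lowest at 4.24 ± 1.08 and 4.23 ± 2.84 TPM, with 23.5% of genes below it in the controls. The Dnmt1KO means had the same order, with Tet2 and Zbtb38 nearly level at 9.85 and 9.80 TPM. On this scale the genotypes overlapped in Mbd2, at 149 and 147 TPM in controls and 140 and 158 TPM in Dnmt1KO replicates 1 and 2, and in Zbtb33, at 14.5 and 14.6 TPM in controls and 7.0 and 14.9 TPM in Dnmt1KO samples, so that their separation in CPM depended on the scaling.

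Ratios between related genes within a sample do not depend on how libraries are scaled. The counts of Tet3 were 3.77 and 2.92 times those of Tet2 in Dnmt1fl/fl samples and 4.87 and 3.25 times in Dnmt1KO samples, so the genotypes overlapped. The counts of Mbd3, which competes with Mbd2 for a place in NuRD, were 0.511 and 0.504 of those of Mbd2 in controls and 0.725 and 0.442 in Dnmt1KO replicates 1 and 2, on either side of the controls. Zbtb38 to Zbtb33 was the 1 ratio of the 3 that did not overlap, at 0.984 and 0.923 in Dnmt1fl/fl and 1.41 and 1.24 in Dnmt1KO macrophages. The log2 ratio was higher by 0.47 in Dnmt1KO, with an exact two-sided permutation p of 0.33, the smallest possible, and 1.00 after Benjamini-Hochberg adjustment over the 3 pairs.

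In all 9 genes the Dnmt1KO samples differed from each other by more than the Dnmt1fl/fl samples did, which held for 74.9% of all genes. The median gap was 0.88 on the log2 scale in Dnmt1KO and 0.13 in Dnmt1fl/fl samples for the 9, and 0.48 and 0.21 for all genes. Tet2 was 3.14-fold and Mbd4 2.18-fold higher in Dnmt1KO replicate 2 than in replicate 1, and Tet3 was 2.09-fold higher. Mbd3 was 1.86-fold and Tdg 1.84-fold higher in Dnmt1KO replicate 1. For Tet2 only 6.73% of all genes had a gap as large. The Dnmt1KO samples lay on opposite sides of both controls in 6 of the 9 genes, against 39.6% of all genes. Replicate 1 was the low one in 4, Tet2, Tet3, Mbd4 and Zbtb38 (20.3% of all genes), and the high one in Tdg and Mbd3 (19.3%).

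**Figure D3:**
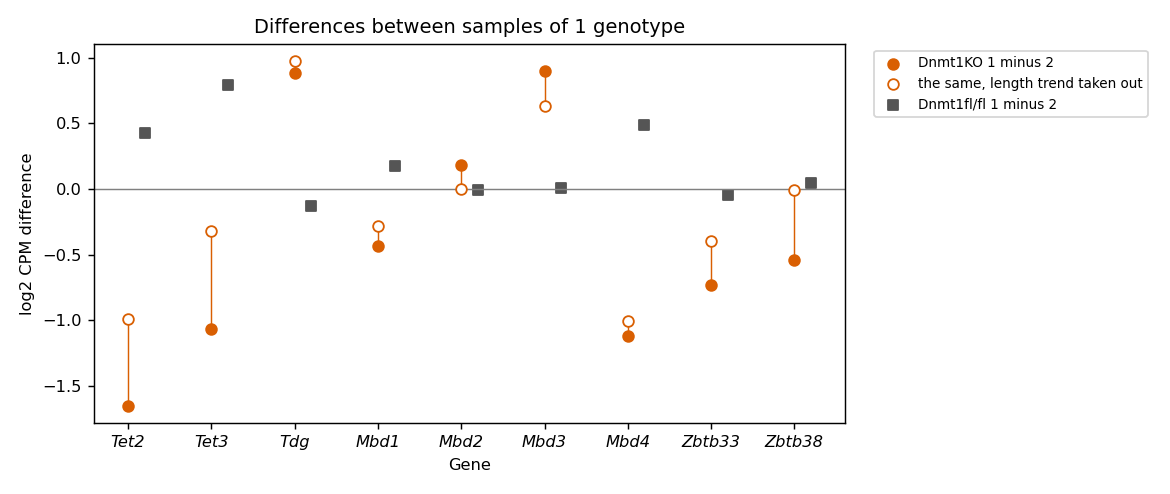
Difference in log2 CPM between the samples of a genotype, with filled orange circles for Dnmt1KO replicate 1 minus 2, open circles for the same after a trend with transcript length was taken out, and grey squares for Dnmt1fl/fl replicate 1 minus 2. The gap in Dnmt1KO goes from -1.65 to -0.99 for Tet2 and from -1.06 to -0.32 for Tet3, and stays near -1 for Mbd4.

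Transcript length moved with this spread. Across all genes, cut into 10 equal bins by the length of the longest transcript, Dnmt1KO replicate 1 was the lowest of the 4 samples for 15.2% of the genes in the shortest bin and 72.7% in the longest. In the longest bin, of 6726 bases or more, it stood 0.38 below the mean of the 4 samples on the log2 scale (median), and Dnmt1KO replicate 2 stood 0.24 above it. Tet2, Tet3 and Zbtb38, with 9179, 10904 and 7406 bases, are in that bin, while Mbd3 and Mbd2, with 1662 and 1953 bases, are in bins 2 and 3 from the short end. When the trend was taken out of each library, a step added after seeing the data, the gap between Dnmt1KO samples shrank in 8 of the 9 genes (59.0% of all genes) and its median over the 9 went from 0.88 to 0.40, beside 0.48 to 0.40 over all genes. The median gap of the 9 between the Dnmt1fl/fl samples went from 0.13 to 0.16. The gap between Dnmt1KO samples went from -0.54 to -0.0047 for Zbtb38 and from 0.18 to -0.00035 for Mbd2. For Tet2 it went from -1.65 to -0.99. It was left almost as large for Mbd4, at -1.12 before and -1.01 after, and for Tdg it grew from 0.88 to 0.97. With the trend removed, 3 of the 9 genes had genotypes that did not overlap, Mbd2 and Zbtb38 higher and Zbtb33 lower, against 18.8% of all genes (11.3% higher and 7.5% lower), and none had an adjusted p under 0.05 (edgeR). The direction of Tet3 turned, to a log2 fold change of 0.050, and the value of Zbtb38 went from 0.096 to 0.22.

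**Figure D4:**
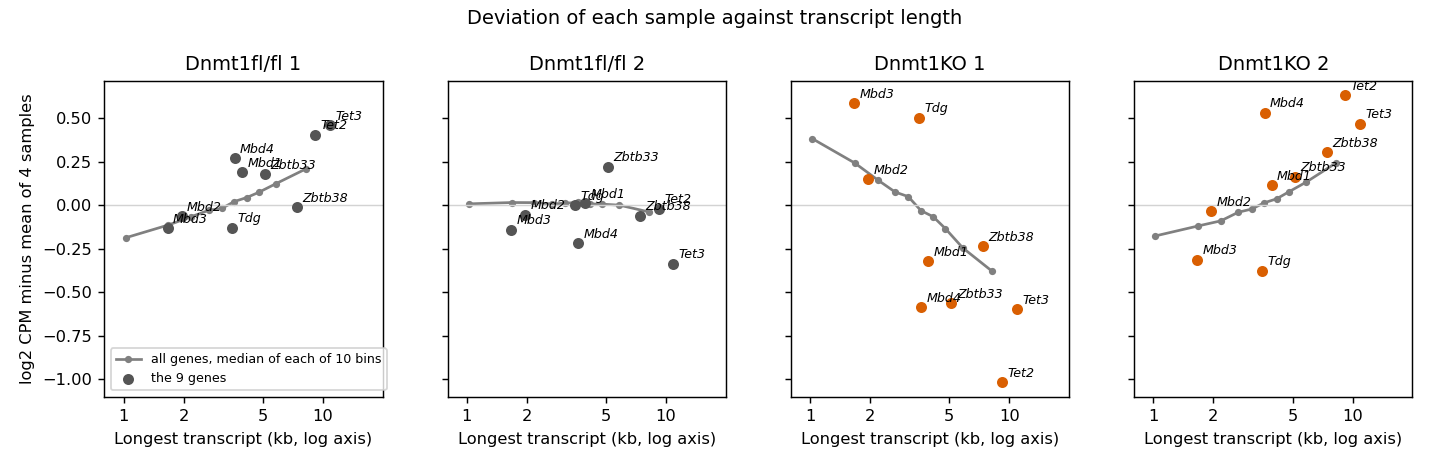
Log2 CPM of each gene minus its mean over the 4 samples, against the length of its longest transcript on a log axis, 1 panel per sample, with a grey line through the median of all genes in each of 10 bins of length. Dnmt1KO replicate 1 falls with length and Dnmt1KO replicate 2 and Dnmt1fl/fl replicate 1 rise, and Mbd4 and Tdg, of similar length, lie far from the line on opposite sides in both Dnmt1KO panels.

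The patterns of the 9 genes over the 4 samples were compared by the root mean square distance between their centred log2 CPM, as a description. Tdg and Mbd3 were closest to each other, at 0.088, and Tet3 and Mbd4 came next, at 0.11. The nearest gene among the 9 to Tet2 was Mbd4, at 0.25. Of 8456 other genes with a mean of at least 10 CPM, the nearest to Tet2 were Cep68 at 0.021, Atrx, a chromatin remodeller, at 0.039 and Zcchc7 at 0.043. Each was lowest in Dnmt1KO replicate 1, which follows from their choice by likeness to Tet2. A likeness over 4 samples does not speak to a shared function.

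The other genes of the pathway were counted in 6 lists. Of their 65 genes 63 were in the table and 62 were tested. None had an adjusted p under 0.05 from edgeR, and Dnmt1 was the 1 gene with an unadjusted p under 0.05, at 0.0084. The genotypes did not overlap in 10 of the 62, 6 higher and 4 lower, a share of 16.1% beside 16.7% of all genes. Over all genes tested, the median log2 fold change was 0.0046.

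Among further members of the reader families and related repressors, Mbd5, Mbd6, Zbtb4, Baz2a, Baz2b, Setdb1 and Setdb2, none of 7 had genotypes that did not overlap. The median log2 fold change was -0.075. In all 7 Dnmt1KO replicate 1 was below Dnmt1KO replicate 2 (50.7% of all genes), and in 6 it was the lowest sample (39.6% of all genes). Over the 6 lists together it was below replicate 2 in 33 of the 62 genes and lowest in 27, with 8 of 19 below and 6 lowest for base excision repair and 4 of 12 below and 2 lowest for NuRD.

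Among the methyltransferases and UHRF proteins, Dnmt1 was the 1 of 6 whose genotypes did not overlap, and the list had a median log2 fold change of -0.25. Of 6 genes tested that supply or modify the TET enzymes, Idh1, which makes their cosubstrate 2-oxoglutarate, was at 292 and 275 CPM in controls and at 327 and 312 CPM in Dnmt1KO samples, both above both controls. D2hgdh, which clears the inhibitor D-2-hydroxyglutarate, was at 21.1 and 23.8 CPM in Dnmt1fl/fl and just below, at 17.7 and 21.1 CPM, in Dnmt1KO macrophages. Ogt, the O-GlcNAc transferase that binds Tet2 and Tet3, had genotypes that overlapped and fell outside the rule for named genes, but was picked out after its values were seen: it stood at 335 and 271 CPM in controls and 82.7 and 381 CPM in Dnmt1KO replicates 1 and 2.

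The 19 base excision repair genes had a median log2 fold change of 0.023. The genotypes did not overlap in 4 of them, beside 16.7% of all genes, with Xrcc1 and Lig1 higher and Neil3 and Mutyh lower. Lig1, a DNA ligase, was at 17.3 and 16.5 CPM in Dnmt1fl/fl and 21.9 and 17.5 CPM in Dnmt1KO samples. Neil3, a glycosylase of oxidised bases, was at 0.877 and 1.63 CPM in controls and 0.656 and 0.805 CPM in Dnmt1KO samples, from 13 to 41 counts, and Mutyh was also at 1.36 CPM or less throughout. The levels of Neil3 and Mutyh are low. The log2 fold changes of 0.22 for Lig1, -0.78 for Neil3 and -0.37 for Mutyh had an adjusted p of 1.00 each (edgeR).

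Of the 12 NuRD subunits, in which Mbd2 and Mbd3 take turns, Mta1 and Mta3 were higher in both Dnmt1KO samples and none was lower in both. Of all genes 8.14% were higher and 8.56% lower in this way, so these counts are not read as a result. Mta3 was at 32.6 and 28.7 CPM in Dnmt1fl/fl and 40.6 and 34.9 CPM in Dnmt1KO macrophages (log2 fold change 0.30, adjusted p = 1.00, edgeR). Mta1 was at 29.6 and 27.6 CPM in controls and 31.4 and 34.9 CPM in Dnmt1KO samples. The median log2 fold change of the 12 was 0.036. Of the 12 corepressors and partners, Sin3b alone had genotypes that did not overlap, at 93.0 and 92.8 CPM in Dnmt1fl/fl and 127 and 94.0 CPM in Dnmt1KO macrophages (log2 fold change 0.25, adjusted p = 1.00, edgeR).

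**Figure D5:**
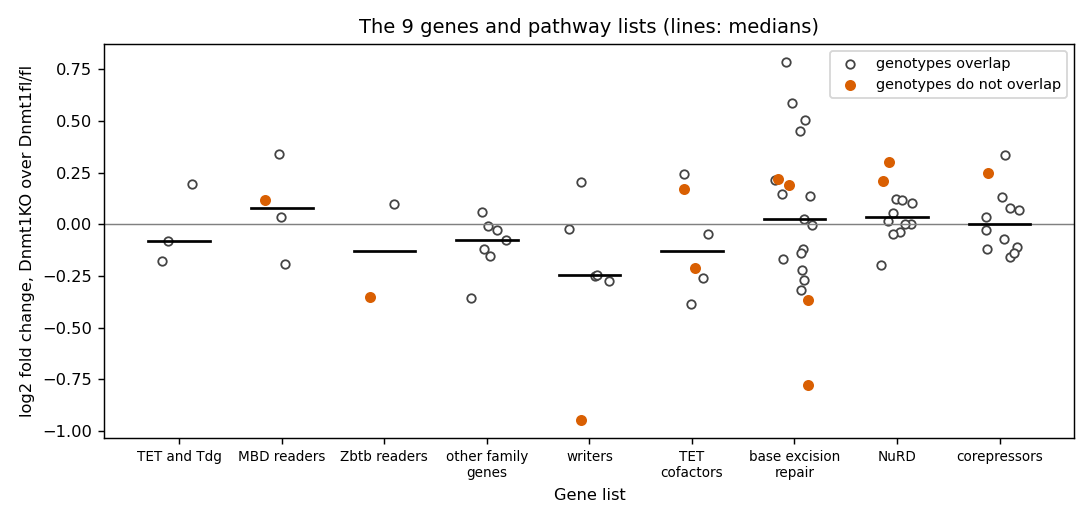
Log2 fold change, Dnmt1KO over Dnmt1fl/fl (edgeR), of the 9 genes in their 3 groups and of the genes tested in 6 pathway lists, with filled orange circles where the genotypes did not overlap and lines for the medians. Dnmt1 at -0.95 is the lowest point, and the medians lie between -0.25 and 0.077.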

How the data were processed

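The authors aligned paired-end reads with HISAT2 2.0.5 and counted them per gene with featureCounts 1.5.0-p3; the submitters' processing notes name mm10, and the annotation is not given in the sources used here. They deposited estimated counts per gene, not normalized; 72.6% to 76.4% of the values in a sample are whole numbers, and how other reads were shared out is not stated. A second, shorter table repeats rows of the first and was not used.

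Counts were rounded, filtered with filterByExpr, scaled with TMM and compared with the two-sided quasi-likelihood F-test of edgeR 4.0.16 (R 4.3.3) over 12542 genes, with Benjamini-Hochberg adjustment. Standard errors and 95% intervals came from the F statistic. The common dispersion was 0.0837. A floor of 3 counts is 0.124 to 0.148 CPM, for counting error only.

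Log2 CPM used a prior count of 1. Lengths, positions and shared 100-base stretches came from GENCODE M21, and promoters from RefSeq, both GRCm38 and matched by symbol. For the length correction, a loess trend (span 0.5) of each library's deviation against log10 length was removed. Named genes were the 9 members, Dnmt1, and from each pathway list up to 3 genes with the largest fold change among those whose genotypes did not overlap. The members and lists were chosen with earlier results of these data known. A result for a further gene of the reader families is not reported here. As alternatives, limma-voom (limma 3.58.1), DESeq2 1.42.0, other scalings and filters, the replicate number as a block and leaving out each sample were run. Other values used Python 3.11.15 and SciPy 1.17.1.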

Additional observations from a re-analysis of the deposited data

How the results depend on the processing

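Genes with an adjusted p under 0.05 numbered 0 in edgeR (35 at an unadjusted p under 0.05), 1 in DESeq2, and 0 to 1061 when a sample was left out, the highest without Dnmt1KO replicate 2; limma-voom, the other scalings and filters, the replicate block and the length corrections gave 0. Same-numbered samples did not deviate together (correlation -0.35 over genes), and the replicate block gave 0 genes called and 34 at an unadjusted p under 0.05. The crossed pairing, added after seeing the data, joined Dnmt1fl/fl replicate 1 with Dnmt1KO replicate 2 and Dnmt1fl/fl replicate 2 with Dnmt1KO replicate 1. It gave 3 genes called and 297 at an unadjusted p under 0.05 (edgeR). None of the 9 genes was called in any fit on all 4 samples. A log2 difference of 0.2 was passed by 4 of the 9 with limma-voom, the replicate block, the crossed pairing or either length correction. In those fits 4883 of 12380 to 5359 of 12542 genes passed it. With DESeq2 and the other scalings and filters 2 or 3 of the 9 passed it, beside 4566 of 11696 to 6342 of 13834 genes. Without Dnmt1KO replicate 2, Tet2, Mbd3 and Zbtb33 were called. Of 135 values of the 9 genes under 15 alternatives, 117 kept direction and call, 15 turned and 3 were called. Tet2 went from -0.18 to -0.38 with limma-voom, the replicate block and the crossed pairing. Mbd4 turned from 0.035 to -0.0093 with limma-voom and to -0.0467 under both the replicate block and the crossed pairing. Tet3 turned from -0.083 to 0.0495 with the length correction and 0.0627 with length correction and block together. With 1 sample left out, the log2 fold change ran from -1.23 to 0.42 for Tet2, -0.71 to 0.37 for Tet3, -0.32 to 0.57 for Tdg, -0.42 to 0.0092 for Mbd1, 0.022 to 0.21 for Mbd2, -0.18 to 0.72 for Mbd3, -0.63 to 0.49 for Mbd4, -0.76 to -0.038 for Zbtb33 and -0.20 to 0.34 for Zbtb38. Other turns came with Dnmt1fl/fl samples left out, for Tet2 to 0.051 and Tet3 to 0.37 without replicate 1 and for Mbd4 to -0.19 without replicate 2. Of all genes past a log2 fold change of 0.2, 47.6% were lower in Dnmt1KO with TMM and 66.4% with library totals alone. The cause of these changes was not tested.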
